A study of Mus musculus with 9 samples.

Results

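The matrix proteases and their inhibitors comprised 85 of the 23420 genes counted in each library, chosen by symbol alone: 23 matrix metalloproteinases (MMPs), 33 ADAMs, 19 ADAMTS proteases, 5 ADAMTS-like proteins, the 4 TIMPs and Reck. The study compared mesenchymal cells, the connective tissue cells of an organ, from 3 tissues of untreated C57BL/6 mice aged 3 to 4 weeks. Cells were sorted from thymus, from bone (femur, tibia and pelvis) and from the skin of the trunk as SCA1-positive cells that lacked the lineage markers of blood, epithelium and endothelium, at 25000 cells or more per sample. Each tissue had 3 RNA-seq libraries, called thymus 2, thymus 3 and thymus 1-3, bone 1 to 3 and skin 1 to 3, and values below are given in that order. The labels do not say whether libraries came from separate animals, nor what the name thymus 1-3 stands for, and the p-values below therefore cover only the spread between these libraries, part or all of which may be technical.

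MMPs are zinc proteases that cut collagens and other matrix proteins, and each is made as an inactive precursor. ADAMs are membrane-bound relatives that shed the outer parts of cell surface proteins, while ADAMTS proteases are secreted and cut proteoglycans, the ends of procollagens and other matrix proteins. ADAMTS-like proteins share the non-catalytic part of ADAMTS proteases and bind to matrix fibres. TIMPs block the active site of these enzymes, and Reck is a membrane-anchored inhibitor of several MMPs.

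A run of 10 Mmp genes over 426.9 kb of chromosome 9 held some of the widest differences between tissues, so the sequences before their starts are shown first. Each line below gives the 250 bases before the RefSeq gene start (GRCm38.p6), 5′ to 3′ on the gene's own strand. Capitals mark matches on either strand to 4 short motifs. For the factor AP-1 the letters searched were TGANTCA. For the RUNX factors they were TGTGGT and for the ETS factors AGGAAG. For the TATA box they were TATAAA, and no motif was required to be clear of another. Mmp13 and Mmp8 were high in bone alone, their relative Mmp27 was high in skin although it lies next to Mmp8, Mmp3 was made in all 3 tissues, and Mmp10 was nearly absent from thymus.
Mmp13: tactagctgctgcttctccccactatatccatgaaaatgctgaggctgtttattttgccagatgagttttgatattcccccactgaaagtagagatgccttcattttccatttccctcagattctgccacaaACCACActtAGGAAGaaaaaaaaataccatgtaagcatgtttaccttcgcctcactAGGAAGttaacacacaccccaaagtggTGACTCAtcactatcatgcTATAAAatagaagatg
Mmp8: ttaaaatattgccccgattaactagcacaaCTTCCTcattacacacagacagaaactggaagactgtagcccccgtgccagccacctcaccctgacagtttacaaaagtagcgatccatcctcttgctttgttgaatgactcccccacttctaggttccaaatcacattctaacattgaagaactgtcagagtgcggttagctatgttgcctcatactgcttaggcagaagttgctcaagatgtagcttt
Mmp27: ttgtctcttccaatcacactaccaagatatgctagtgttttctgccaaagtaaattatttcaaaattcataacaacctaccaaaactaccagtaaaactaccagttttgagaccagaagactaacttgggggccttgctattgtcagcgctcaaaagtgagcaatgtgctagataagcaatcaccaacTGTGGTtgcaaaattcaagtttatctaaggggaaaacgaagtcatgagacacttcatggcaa
Mmp3: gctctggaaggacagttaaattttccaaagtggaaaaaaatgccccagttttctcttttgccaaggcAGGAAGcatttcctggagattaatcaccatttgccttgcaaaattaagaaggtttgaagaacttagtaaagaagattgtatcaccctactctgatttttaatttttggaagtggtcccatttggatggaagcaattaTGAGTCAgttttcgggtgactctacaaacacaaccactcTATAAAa
Mmp10: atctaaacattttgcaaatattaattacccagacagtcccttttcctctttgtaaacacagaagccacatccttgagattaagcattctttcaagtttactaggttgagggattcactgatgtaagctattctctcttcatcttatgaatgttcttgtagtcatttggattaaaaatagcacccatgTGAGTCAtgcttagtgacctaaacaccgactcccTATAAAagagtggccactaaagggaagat
The windows were chr9:7272264-7272513 for Mmp13, chr9:7558179-7558428 for Mmp8, chr9:7571146-7571395 for Mmp27, chr9:7445572-7445821 for Mmp3 and chr9:7502092-7502341 for Mmp10, all on the plus strand. Mmp13 held an AP-1 match that began 35 bases before the start, a RUNX match at 118, ETS matches at 109 and 62 and a TATA box at 16. Mmp8 held only an ETS match at 220, and Mmp27 only a RUNX match at 62. Mmp3 and Mmp10 each held an AP-1 match (at 46 and 63) and a TATA box (at 7 and 29), and Mmp3 also an ETS match at 183.

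AP-1 matches lay before 7 of the 10 genes of the cluster, and the same 7 had a TATA box. Of these 7, Mmp1a, Mmp1b, Mmp7 and Mmp20 had no read in any library. RefSeq windows were at hand for 54 of the 85 members. The AP-1 letters were in 18.5% of the 54 windows and in 6.87% of the windows of 27025 genes; the TATA letters were in 24.1% and 13.0%, the ETS letters in 35.2% and 29.2%, and the RUNX letters in 16.7% and 14.2%. Of the 44 member windows outside the cluster, 3 held the AP-1 letters (Adam20, Adam25 and Adam29), 6 the TATA letters, 13 the ETS letters and 6 the RUNX letters. The larger AP-1 share of the members thus came from the cluster. Among the 40 windows of members that passed the filter on low counts, the AP-1 letters were in 3, the TATA letters in 5, the ETS letters in 13 and the RUNX letters in 6. A match describes these letters only.

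Windows are also shown for a pair of genes outside the cluster, Adamts1 and Adam23, which were highest in skin. Adamts1 (chr16:85803114-85803363, minus strand) had a TATA box that began 32 bases before its start and a GC content of 65.6%. Adam23 (chr1:63445641-63445890, plus strand) had none of the 4 motifs and a GC content of 70.4%, against 40.4% before Mmp13 and a median of 52% over all genes. The 54 member windows had a median of 54.8% and ran from 33.2% to 80%. Adamts3, highest in bone, had 78%, Adamts20, highest in thymus, had 76.4%, and Mmp27, highest in skin, had 38.8%. A high GC content was therefore not particular to members high in skin.
Adamts1: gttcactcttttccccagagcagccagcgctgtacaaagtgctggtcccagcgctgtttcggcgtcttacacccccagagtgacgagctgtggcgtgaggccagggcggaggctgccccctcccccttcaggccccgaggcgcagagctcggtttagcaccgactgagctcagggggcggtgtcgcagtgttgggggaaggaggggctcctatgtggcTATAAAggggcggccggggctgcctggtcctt
Adam23: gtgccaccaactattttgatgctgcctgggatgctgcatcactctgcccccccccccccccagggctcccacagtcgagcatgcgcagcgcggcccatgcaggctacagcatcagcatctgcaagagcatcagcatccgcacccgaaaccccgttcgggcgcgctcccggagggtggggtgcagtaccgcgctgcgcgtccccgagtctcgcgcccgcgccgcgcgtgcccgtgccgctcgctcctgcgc

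Reads assigned to genes ran from 78757872 (bone 3) to 116759235 (skin 3) per library, and replicates of a tissue correlated at 0.977 to 0.992 across genes on the log scale. Levels below are counts scaled to library size by the TMM method (CPM), given as mean ± SD of 3 libraries. Fold changes are log2 values ± SE from edgeR's quasi-likelihood test on all 9 libraries, with Benjamini-Hochberg adjustment over the 15635 genes tested, and were called at an adjusted p under 0.05. Each is given as thymus minus bone, thymus minus skin or bone minus skin, so a negative value marks the tissue named first as the lower. Skin had TMM factors of 0.701 to 0.77, and thymus and bone had factors of 1.1 to 1.23. Scaling by library size alone moved the median log2 fold change of all genes by 0.63 for thymus against skin and by 0.69 for bone against skin, so a difference from skin described below that lost its call or changed sign under it is named as such. The collagen genes Col1a1, Col1a2 and Col3a1, from a list of 11 markers of mesenchymal identity, were detected in every library. Of the 11, 5 were higher and 3 lower in thymus than in bone, and 3 higher and 6 lower in thymus than in skin. In bone against skin 6 were lower and 0 higher. Their sums were 53266 to 56243 CPM in thymus, 67638 to 68444 CPM in bone and 334586 to 371152 CPM in skin. In RNA from whole sorts, fewer cells of a type and less RNA per cell cannot be told apart.

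Of the 85 members, 62 passed the filter on low counts and were tested, 19 had no read in any library, and 29 stayed under 1 CPM in every tissue. Expression differed among the 3 tissues for 49 of the 62, against 56.2% of all genes tested. In thymus against bone, 19 members were higher and 17 lower, where 16.5% of all genes tested were higher and 16.1% lower. Calls in either direction made up 32.6% of all genes. In thymus against skin, 14 were higher and 25 lower (19.3% and 18.3% of all genes, or 37.6% together). In bone against skin, 15 were higher and 28 lower (23.7% and 23.4%, or 47.1% together). The 3 libraries of each tissue did not overlap for 49.4%, 51.9% and 58.3% of all genes in these 3 comparisons, so a lack of overlap in a single member below is common in these data. The median log2 fold changes of the tested members were 0.20, -0.11 and -0.38 in these 3 comparisons, beside 0.02, 0.03 and 0.03 over all genes. Lower calls were the more numerous ones against skin, and their number rested on the scaling. By library size alone, 15 members were lower in bone than in skin and 25 were higher in thymus than in skin. Over all genes, thymus was then higher than skin for 7219 and lower for 1239, and bone was higher than skin for 7474 and lower for 1391. The 3 comparisons share libraries. The plot of fold changes by role shows each tested member.

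**Figure D1:**
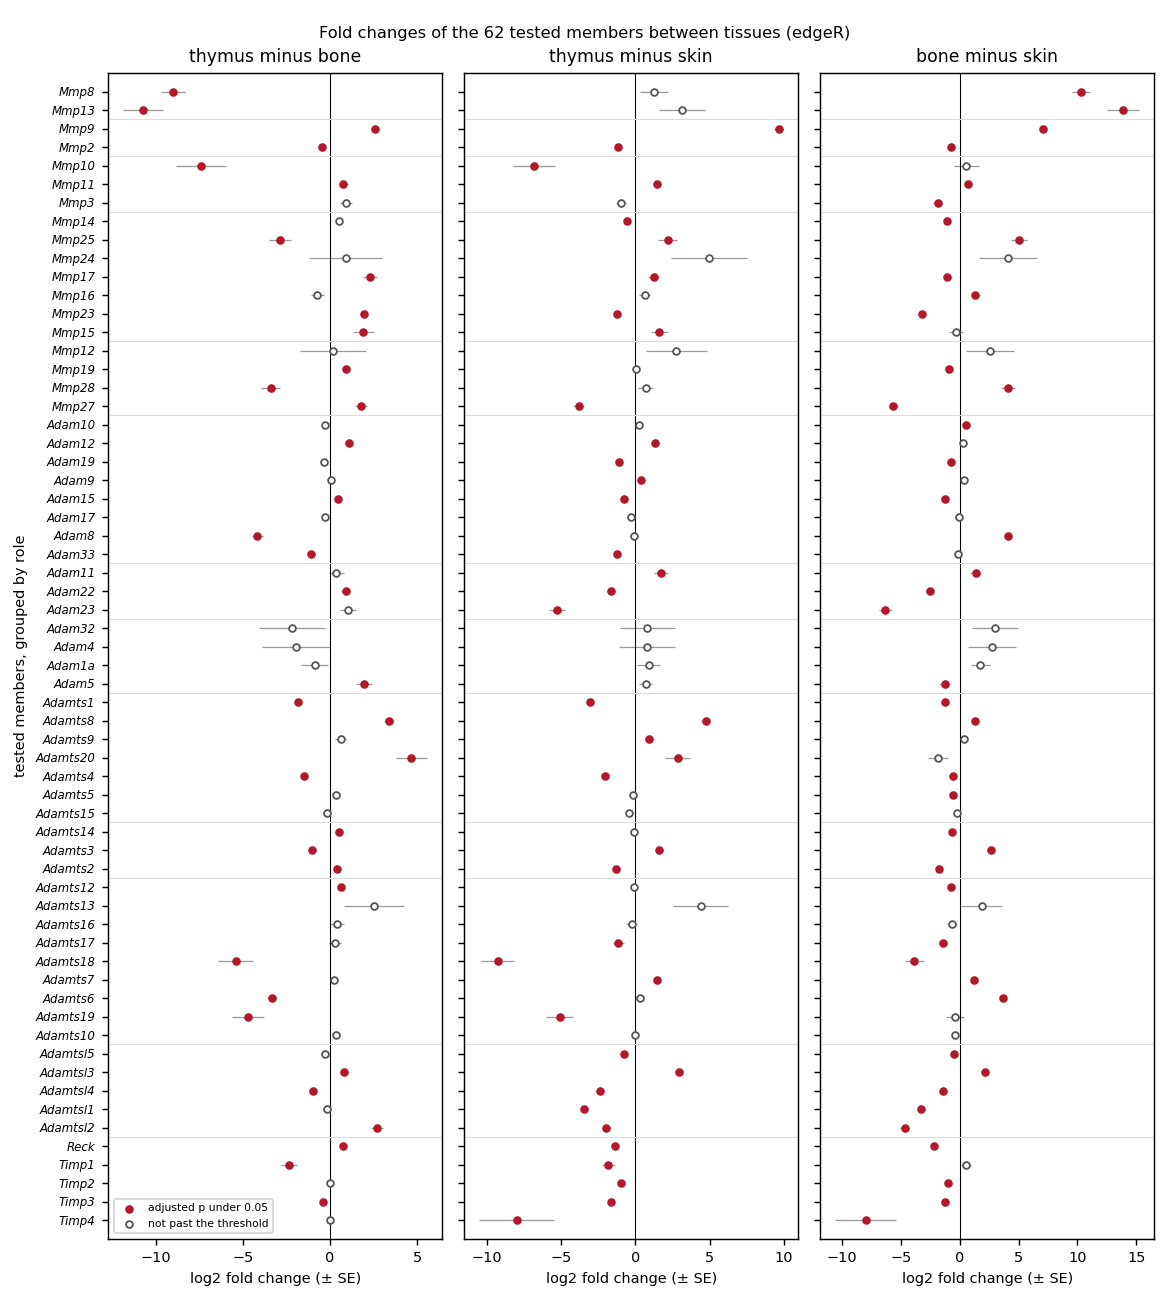
Log2 fold change (x axis, ± SE) of the 62 tested members (y axis, grouped by role) in thymus minus bone, thymus minus skin and bone minus skin; red points had an adjusted p under 0.05 and open points did not. All 5 inhibitors lay left of 0 in thymus minus skin, and Mmp13, Mmp8 and Mmp9 lay farthest to the right in bone minus skin.

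Collagenases make the first cut in fibrillar collagen. Of the 4 genes classed here as collagenases, 2 were tested, Mmp13 and Mmp8, and both were high in bone alone. Mmp14 was classed with the membrane-bound MMPs and is given below. Mmp13 stood at 0.235, 0.837 and 0 CPM in thymus, 279, 1139 and 468 CPM in bone and 0, 0 and 0.115 CPM in skin. All 3 bone libraries were far above the other 6, but they spanned a wide range, and without bone 2 the bone mean fell from 629 to 374 CPM. Mmp13 was lower in thymus than in bone (log2 fold change -10.74 ± 1.14, adjusted p = 7.64e-05) and higher in bone than in skin (log2 fold change 13.87 ± 1.37, adjusted p = 3.22e-05). These fitted folds rest on few reads on the low side, so their sizes are loose: over fits that each left out 1 library they ran from -12.29 to -9.99 and from 13.12 to 18.96, moving over 1.5-fold without bone 2, thymus 3, skin 1 or skin 3. Mmp8 stood at 0.0336, 0.151 and 0.176 CPM in thymus, 54.0, 56.4 and 76.3 CPM in bone and 0.135, 0 and 0 CPM in skin. Mmp8, the collagenase of neutrophils, showed the same order, with no overlap between bone and either other tissue (log2 fold change -9.02 ± 0.69, adjusted p = 9.37e-06 against thymus, and log2 fold change 10.28 ± 0.77, adjusted p = 5.61e-06 against skin, where the fit without skin 1 or skin 3 gave up to 15.62). Mmp1a and Mmp1b, the mouse counterparts of the interstitial collagenase, had no read.

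Markers of other classes of cell moved with the collagenases. Col10a1, a collagen of hypertrophic chondrocytes, stood at 318, 854 and 552 CPM in bone, against 0.130 CPM in thymus and 0.0191 CPM in skin. Of 9 markers of chondrocytes and osteoblasts, 9 were lower in thymus than in bone and 9 higher in bone than in skin, and their summed level was 2158 to 3442 CPM in bone, 13.5 to 21.7 CPM in thymus and 12.1 to 15.1 CPM in skin, with Bglap at 0 in thymus and Ibsp at 0 in skin. Of 10 markers of neutrophils and other myeloid cells, 10 were lower in thymus than in bone and 9 higher in bone than in skin, with sums of 3007 to 4142, 16.3 to 46.8 and 36.8 to 83.7 CPM and Elane at 0 in skin. Of 7 markers of B cells, 6 were lower in thymus than in bone and 6 higher in bone than in skin. Their sums were 177 to 213 CPM in bone, 60.4 to 101 CPM in thymus and 115 to 132 CPM in skin. Of 4 counted markers of erythroid cells, 3 were lower in thymus than in bone and 2 higher in bone than in skin. Their sums were 17.2 to 24.0, 0 to 1.32 and 1.26 to 1.89 CPM in bone, thymus and skin. The sort was gated against CD45, CD11b and GR-1. The part of these cells in the bone levels of Mmp13, Mmp8 and the other members high in bone was not tested.

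The gelatinases, which cut denatured collagen and the collagen of basement membranes, parted. Mmp9 stood at 601, 461 and 585 CPM in thymus, 87.3, 99.5 and 90.9 CPM in bone and 0.956, 0.410 and 0.657 CPM in skin. No library of 1 tissue overlapped another, with thymus highest, bone between and skin close to nothing. Mmp9 was higher in thymus than in bone (log2 fold change 2.57 ± 0.22, adjusted p = 4.42e-06) and than in skin (log2 fold change 9.65 ± 0.30, adjusted p = 4.79e-09), and higher in bone than in skin (log2 fold change 7.08 ± 0.28, adjusted p = 1.92e-08). The 10 markers of neutrophils and other myeloid cells, whose sums are given above, were lower in thymus than in bone. Against skin, 4 of them were higher and 2 lower in thymus. Of 7 markers of pericytes and smooth muscle, 4 were higher and 2 lower in thymus than in bone, and 6 were higher in thymus than in skin. Their sums were 919 to 1246 CPM in thymus, 393 to 409.96 CPM in bone and 55.6 to 117 CPM in skin, with none at 0. Of 9 markers of thymocytes and T cells, 4 were higher in thymus than in bone and 8 higher than in skin, with sums of 65.8 to 185 CPM in thymus, 41.2 to 76.8 CPM in bone and 0.806 to 1.21 CPM in skin and with Ptcra at 0 in bone and skin and Cd3e at 0 in skin. Of 5 tested markers of thymic epithelium, 3 were higher in thymus than in bone, 2 were higher and 1 lower in thymus than in skin, and sums were 6.92 to 8.71, 0.126 to 0.488 and 9.24 to 31.8 CPM in thymus, bone and skin, with Aire at 0 in bone and skin and Psmb11 at 0 in bone. The part of these cells in the thymus levels of Mmp9 and of the other members high in thymus was not tested.

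Mmp2 stood at 1546, 1511 and 1418 CPM in thymus, 2073, 2022 and 2089.9 CPM in bone and 2763, 3474 and 3885 CPM in skin. Mmp2, the gelatinase made by most fibroblasts, was abundant in every library, and its groups rose in the order thymus, bone, skin without overlap. It was lower in thymus than in skin (log2 fold change -1.18 ± 0.16, adjusted p = 0.000105). The smaller steps were less firm. Thymus against bone (log2 fold change -0.47 ± 0.15, adjusted p = 0.0358) was lost on leaving out any library but skin 1 or skin 3, with adjusted p up to 0.0951, and bone against skin (log2 fold change -0.71 ± 0.15, adjusted p = 0.00259) went to -0.019, adjusted p = 0.920 by library size alone.

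Of the stromelysins and matrilysin, which cut proteoglycans, fibronectin and other proteases, Mmp3 was the most abundant. Mmp3 stood at 114, 81.4 and 50.1 CPM in thymus, 35.9, 33.2 and 61.8 CPM in bone and 111, 158 and 209 CPM in skin. Mmp3 was lower in bone than in skin (log2 fold change -1.87 ± 0.36, adjusted p = 0.00186), where no library overlapped. Its thymus libraries overlapped both other tissues, and neither comparison passed (adjusted p = 0.0725 against bone and 0.0535 against skin), although leaving out bone 3 brought both under the threshold. Mmp11, a furin-activated MMP of remodelling stroma, had its lowest mean in skin, at 46.5 ± 4.21 CPM in thymus, 27.7 ± 8.69 CPM in bone and 16.7 ± 5.76 CPM in skin. It was higher in thymus than in skin (log2 fold change 1.47 ± 0.27, adjusted p = 0.00117). Its bone minus skin call (log2 fold change 0.73, adjusted p = 0.0405) was lost without any library except bone 3 or skin 3, with adjusted p up to 0.176. Its thymus minus bone call (adjusted p = 0.0490) was lost without bone 2, bone 3, skin 2 or any thymus library, with adjusted p up to 0.156. Mmp10 had 2 reads in the 3 thymus libraries together. Its level was 222 times higher in bone than in thymus (95% counting interval 61.2 to 1843) and 144 times higher in skin (39.3 to 1196), yet it reached only 1.24 and 0.833 CPM there. Mmp7, or matrilysin, had no read.

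Among the membrane-bound MMPs, Mmp14, the main activator of Mmp2, was the most abundant. Mmp14 stood at 1022, 949 and 1412 CPM in thymus, 821, 879 and 699 CPM in bone and 1487, 1800.3 and 1767 CPM in skin. Skin was highest and bone lowest without overlap, and Mmp14 was lower in bone than in skin (log2 fold change -1.07 ± 0.18, adjusted p = 0.000456), a call that library size alone took to -0.38, adjusted p = 0.0659. The difference of thymus from skin (log2 fold change -0.58 ± 0.18, adjusted p = 0.0232) turned to 0.05, adjusted p = 0.819 by library size alone, and was lost without skin 2, thymus 2 or thymus 3 (adjusted p = 0.0800, 0.0856 and 0.106). Mmp23 stood at 117, 117 and 92.2 CPM in thymus, 28.7, 31.6 and 22.6 CPM in bone and 229, 280.01 and 267 CPM in skin. Mmp23, released from the membrane by furin-like cleavage, separated all 3 tissues in the order skin, thymus, bone (log2 fold change 1.97 ± 0.16, adjusted p = 3.99e-06 for thymus minus bone, and log2 fold change -3.23 ± 0.17, adjusted p = 1.54e-07 for bone minus skin).

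The scarcer membrane-bound MMPs had orders of their own. Mmp17, anchored by a lipid, was at 7.41 ± 0.800 CPM in thymus, 1.53 ± 0.121 CPM in bone and 3.16 ± 1.30 CPM in skin. Mmp17 was higher in thymus than in bone (log2 fold change 2.28 ± 0.39, adjusted p = 0.000829). Its bone minus skin call was lost without any library except skin 3, with adjusted p up to 0.147, and by library size alone (adjusted p = 0.438), and its thymus minus skin call without skin 3, thymus 2 or thymus 1-3, with adjusted p up to 0.0748. Mmp15 was at 7.47 ± 1.20 CPM in thymus, 1.98 ± 1.81 CPM in bone and 2.45 ± 1.06 CPM in skin, and the call of thymus above bone (log2 fold change 1.91 ± 0.59, adjusted p = 0.0283) was lost without bone 1, bone 3, thymus 2 or thymus 1-3 (adjusted p up to 0.0929), while without bone 2 its bone mean fell to 0.939 CPM and the value rose to 2.99. Its call of thymus above skin (adjusted p = 0.0496) was lost without any thymus or skin library, with adjusted p up to 0.128. Mmp25, the leukolysin of neutrophils, was at 1.08 ± 0.530 CPM in thymus, 7.997 ± 2.17 CPM in bone and 0.239 ± 0.212 CPM in skin. Mmp25 was higher in bone than in skin (log2 fold change 5.05 ± 0.70, adjusted p = 0.000117, and 6.09 without skin 1) and than in thymus (log2 fold change -2.88 ± 0.63, adjusted p = 0.00399). Its thymus minus skin call (log2 fold change 2.16 ± 0.63, adjusted p = 0.0178) was lost without skin 2 or thymus 3, with adjusted p up to 0.0686, and was 3.21 without skin 1.

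**Figure D2:**
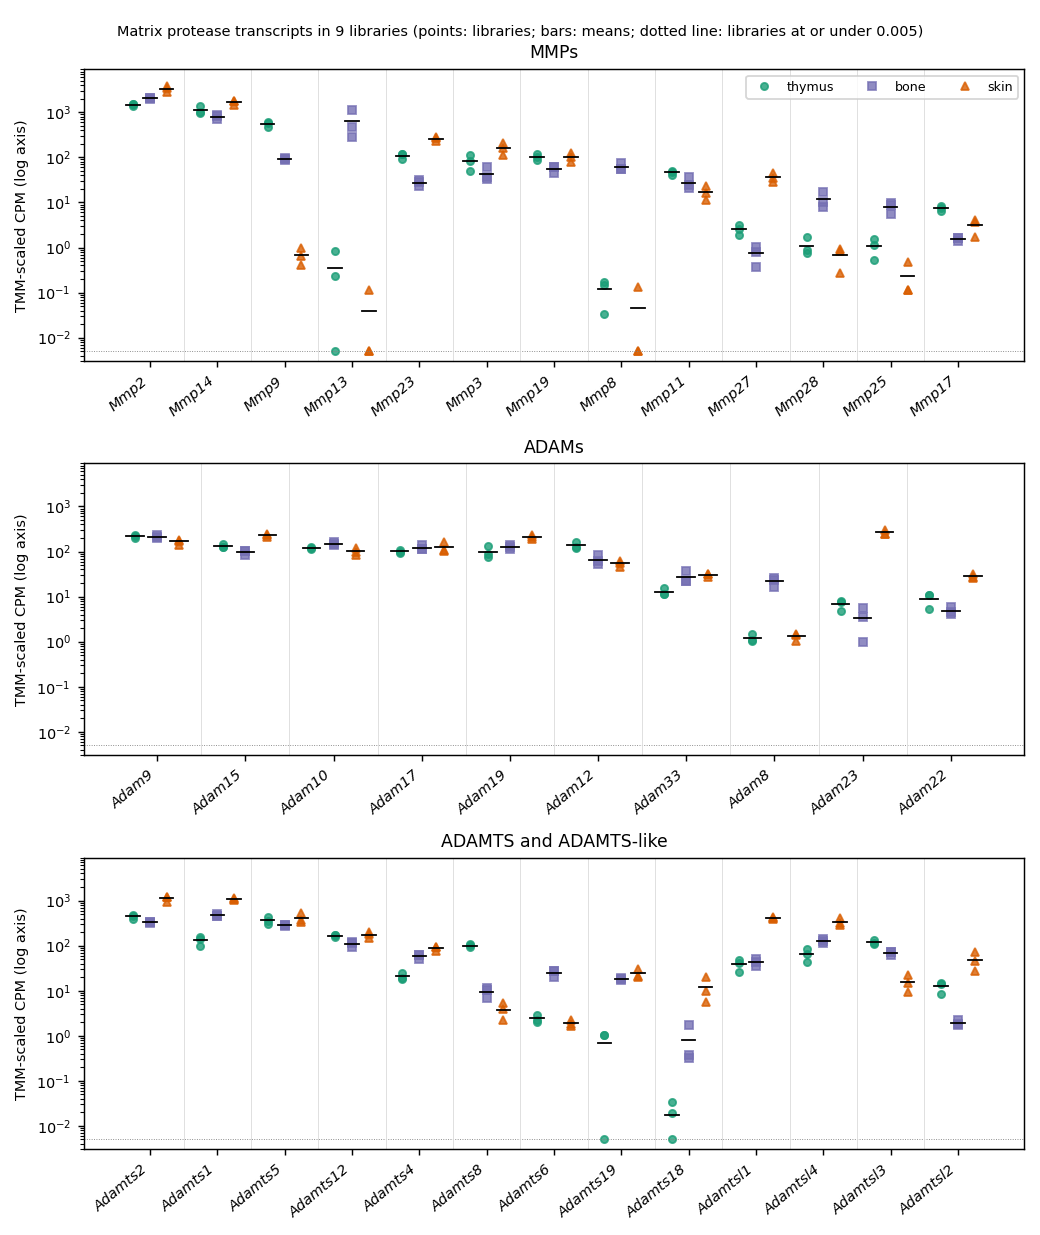
TMM-scaled CPM on a log axis for the more abundant and more variable members (x axis), with 1 point per library (circles thymus, squares bone, triangles skin) and bars at the means of 3 libraries; points on the dotted line were at or under 0.005. Mmp13 spans 279 to 1139 CPM in bone, while the points of Adam9, Adam10 and Adam17 lie close together in all 9 libraries.

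Among the remaining secreted MMPs, Mmp27 and Mmp28 had opposite orders of skin and bone. Mmp27 stood at 1.85, 3.15 and 2.61 CPM in thymus, 0.796, 0.367 and 1.05 CPM in bone and 28.7, 35.5 and 44.3 CPM in skin. Skin was highest in every library, thymus came next and bone last, with no overlap, and Mmp27 was lower in bone than in skin (log2 fold change -5.62 ± 0.40, adjusted p = 1.07e-06) and in thymus than in skin (log2 fold change -3.83 ± 0.36, adjusted p = 8.96e-06). Mmp28 stood at 1.68, 0.770 and 0.863 CPM in thymus, 17.2, 10.1 and 7.83 CPM in bone and 0.270, 0.953 and 0.819 CPM in skin. Mmp28, or epilysin, was instead higher in bone than in thymus (log2 fold change -3.41 ± 0.54, adjusted p = 0.000475) and in skin (log2 fold change 4.11 ± 0.56, adjusted p = 0.000102). It shares 12.03% of its exon bases with another gene in the GENCODE annotation, and whether reads were counted by strand was not given in any source used here. Mmp19, made by many stromal cells, was at 103 ± 14.8 CPM in thymus, 54.8 ± 8.70 CPM in bone and 102 ± 22.7 CPM in skin. Mmp19 was lower in bone than in thymus (log2 fold change 0.91 ± 0.19, adjusted p = 0.00286) and in skin (log2 fold change -0.89 ± 0.19, adjusted p = 0.00211, but -0.20, adjusted p = 0.355 by library size alone). In GENCODE, 22.3% of its exon bases lie in Tmem198b as well.

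Along the chromosome 9 cluster, neighbours had different tissues of highest level. Mmp13 opens the cluster, and Mmp8 starts 285.9 kb further on. Mmp27 begins 3.0 kb after the end of Mmp8 on the same strand. Mmp8 and Mmp27 were at 62.2 and 0.738 CPM in bone and at 0.0450 and 36.2 CPM in skin. Mmp3, near the middle, was detected in all 9 libraries, while Mmp1a next to it had no read and Mmp12 stayed under 1 CPM in every tissue. On chromosome 16, Adamts1 and Adamts5 lie 55 kb apart, and on chromosome 9 Adamts15 and Adamts8 lie 20.1 kb apart.

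**Figure D3:**
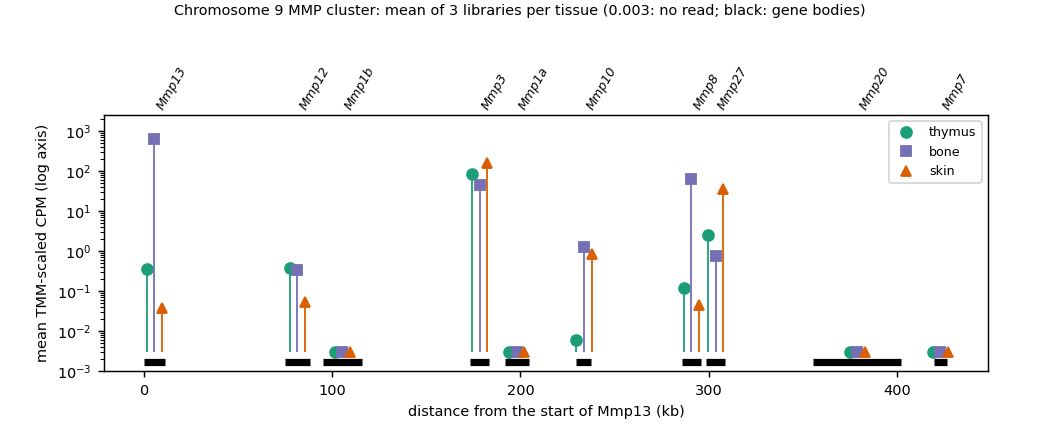
Mean TMM-scaled CPM (log axis; 3 libraries per tissue) of the 10 MMP genes of the chromosome 9 cluster by distance from the start of Mmp13 in kb; black bars are gene bodies and 0.003 stands for no read. The highest symbol is bone at Mmp13 and Mmp8 and skin at Mmp3 and Mmp27.

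Of the 8 tested ADAMs that cut other proteins, 2 were higher and 2 lower in thymus than in bone, 2 higher and 3 lower in thymus than in skin, and for bone minus skin 2 higher and 2 lower. Over all genes, calls in these comparisons made up 32.6%, 37.6% and 47.1%. By library size alone the lower calls of Adam15 in thymus and of Adam19 in bone against skin were lost (adjusted p = 0.393 and 0.785). Adam10 and Adam17, the main sheddases of growth factors and cytokines, were at 121 ± 5.97 CPM in thymus, 149 ± 8.52 CPM in bone and 102 ± 19.2 CPM in skin and at 100.4 ± 8.28 CPM in thymus, 122 ± 16.1 CPM in bone and 124 ± 32.7 CPM in skin. Adam10 was higher in bone than in skin (log2 fold change 0.55 ± 0.14, adjusted p = 0.00750); Adam17 passed in no comparison, and its bone minus skin difference turned from -0.018 to 0.67, adjusted p = 0.00807 by library size alone. Adam9, a widely made sheddase, had 218 ± 16.3 CPM in thymus, 213 ± 17.7 CPM in bone and 167 ± 21.5 CPM in skin, and its call of thymus above skin (log2 fold change 0.38 ± 0.14, adjusted p = 0.0456) was lost on leaving out any library but skin 1, with adjusted p up to 0.184. Adam15 was higher in skin, at 133 ± 12.6 CPM in thymus, 96.4 ± 10.4 CPM in bone and 228 ± 15.2 CPM in skin (log2 fold change -1.24 ± 0.13, adjusted p = 1.77e-05 for bone minus skin). Adam19 was at 98.2 ± 29.3 CPM in thymus, 125 ± 11.7 CPM in bone and 211 ± 18.3 CPM in skin. Adam19 was lower in thymus than in skin (log2 fold change -1.11 ± 0.19, adjusted p = 0.000687).

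A few ADAMs stood apart by tissue. Adam12 stood at 129, 120.4 and 167 CPM in thymus, 52.1, 62.7 and 83.9 CPM in bone and 61.5, 56.4 and 46.0 CPM in skin. Adam12, an ADAM of developing mesenchyme and muscle, was highest in thymus without overlap (log2 fold change 1.07 ± 0.19, adjusted p = 0.00128 against bone, and log2 fold change 1.34 ± 0.19, adjusted p = 0.000211 against skin). Adam8 stood at 1.05, 1.10 and 1.51 CPM in thymus, 16.5, 25.8 and 23.9 CPM in bone and 1.03, 1.48 and 1.44 CPM in skin. Adam8, known from myeloid cells and osteoclasts, was high in all 3 bone libraries only (log2 fold change -4.17 ± 0.30, adjusted p = 1.44e-06 for thymus minus bone, and log2 fold change 4.06 ± 0.30, adjusted p = 1.17e-06 for bone minus skin). Of 5 tested osteoclast markers, 4 were lower in thymus than in bone and 2 higher in bone than in skin, with sums of 511 to 769.6 CPM in bone, 257 to 343 CPM in thymus and 412 to 574 CPM in skin. Of the 7 osteoclast markers counted, Calcr had no read in bone but 24 reads in thymus and 8 in skin, and Dcstamp had none in thymus. The part of osteoclasts in the bone level of Adam8 was not tested. Adam33 was at 12.8 ± 2.21 CPM in thymus, 27.1 ± 8.56 CPM in bone and 30.0 ± 2.14 CPM in skin. Adam33 was lower in thymus than in bone (log2 fold change -1.08 ± 0.22, adjusted p = 0.00249) and in skin (log2 fold change -1.23 ± 0.22, adjusted p = 0.000870).

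The somatic ADAMs without protease activity act in cell adhesion, and Adam22 and Adam23 are receptors for LGI proteins. Adam23 stood at 4.68, 8.11 and 7.71 CPM in thymus, 5.54, 3.54 and 0.998 CPM in bone and 249.6, 244 and 302 CPM in skin. Skin was far above both other tissues in every library, and Adam23 was lower in thymus than in skin (log2 fold change -5.28 ± 0.54, adjusted p = 4.85e-05) and in bone than in skin (log2 fold change -6.30 ± 0.57, adjusted p = 1.78e-05). Adam22 followed the same direction at lower levels, with 9.02 ± 3.33 CPM in thymus, 4.86 ± 0.792 CPM in bone and 28.2 ± 3.11 CPM in skin (log2 fold change -2.54 ± 0.28, adjusted p = 2.38e-05 for bone minus skin). Adam11 was lowest in skin, at 6.80 ± 1.502 CPM in thymus, 5.28 ± 3.16 CPM in bone and 2.07 ± 0.915 CPM in skin (log2 fold change 1.71 ± 0.46, adjusted p = 0.0116 for thymus minus skin). Its bone minus skin call was lost without bone 2, skin 1 or skin 2, with adjusted p up to 0.185, and without bone 2 its bone mean fell to 3.45 CPM.

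Markers of other cells moved with the members that were high in skin. Of 8 markers of keratinocytes and hair follicles, 6 were lower in thymus and 8 lower in bone than in skin, with sums of 166 to 483 CPM in skin, 17.3 to 25.7 CPM in thymus and 3.17 to 4.13 CPM in bone and with Krt15 at 0 in bone. All 4 tested markers of skeletal muscle were lower in thymus and in bone than in skin, with sums of 14.02 to 37.3 CPM in skin, 1.35 to 2.07 CPM in thymus and 1.34 to 3.82 CPM in bone and with Myh4 and Myod1 at 0 in thymus and bone. Of 6 markers of Schwann cells and melanocytes, 4 were lower in thymus and 2 lower in bone than in skin, with sums of 13.9 to 27.5, 1.48 to 2.57 and 3.69 to 5.75 CPM in skin, thymus and bone and with Dct at 0 in thymus and bone. The 6 tested markers of endothelial cells gave mixed calls. Against skin, thymus had 2 of them raised and 2 reduced, and bone also had 2 raised and 2 reduced. Their summed level was largest in skin, at 247 to 344 CPM. It was 59.3 to 96.5 CPM in thymus and 58.2 to 72.4 CPM in bone. The part of all these cells in the skin levels of Adam23, Mmp27, Adamts1, the inhibitors and the other members high in skin was not tested.

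The 21 ADAMs known from testis and epididymis were nearly silent, and 4 passed the filter on low counts. Adam5 alone among them reached 10 CPM in a tissue, at 10.1 ± 1.90 CPM in thymus, 2.59 ± 1.33 CPM in bone and 6.22 ± 3.82 CPM in skin. It was higher in thymus than in bone (log2 fold change 1.96 ± 0.46, adjusted p = 0.00682). Its bone minus skin call (log2 fold change -1.26 ± 0.45, adjusted p = 0.0384) was lost without bone 2, bone 3, skin 3, thymus 3 or thymus 1-3 (adjusted p up to 0.219) and by library size alone (adjusted p = 0.280), and without skin 3 its skin mean fell to 4.02 CPM. Adam5 lies between Adam3 and Adam32, and Adam32 and Adam9 lie 0.8 kb apart.

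The proteoglycan-cleaving ADAMTS proteases, or aggrecanases and versicanases, split by tissue. Adamts1 stood at 141, 156 and 97.8 CPM in thymus, 502, 452 and 448 CPM in bone and 1104, 1021 and 1134 CPM in skin. Every tissue was separate, in the order skin, bone, thymus (log2 fold change -1.83 ± 0.18, adjusted p = 1.14e-05 for thymus minus bone, log2 fold change -3.05 ± 0.18, adjusted p = 2.60e-07 for thymus minus skin, and log2 fold change -1.22 ± 0.17, adjusted p = 0.000133 for bone minus skin). Adamts4 kept that order at lower levels, with 20.9 ± 3.43 CPM in thymus, 59.0 ± 6.62 CPM in bone and 88.5 ± 10.51 CPM in skin. It was lower in thymus than in skin (log2 fold change -2.08 ± 0.16, adjusted p = 1.71e-06), but its bone minus skin difference, log2 fold change -0.59 ± 0.15, adjusted p = 0.00836, went to 0.11, adjusted p = 0.597 by library size alone. Adamts5, the main aggrecanase of mouse cartilage, differed little, at 367 ± 67.3 CPM in thymus, 284 ± 12.6 CPM in bone and 410.5 ± 93.8 CPM in skin, and passed only in bone against skin (log2 fold change -0.53 ± 0.18, adjusted p = 0.0313). That call was lost without bone 1, bone 2, bone 3 or skin 3, with adjusted p up to 0.121, and went to 0.15, adjusted p = 0.485 by library size alone. The ratio of Adamts1 to Adamts5 in RPKM, a measure per gene length, was 0.627 ± 0.222 in thymus, 2.74 ± 0.160 in bone and 4.50 ± 0.753 in skin.

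Adamts8 stood at 107, 93.1 and 101 CPM in thymus, 11.5, 10.3 and 6.74 CPM in bone and 3.86, 5.26 and 2.23 CPM in skin. Thymus was highest without overlap, and Adamts8 was higher there than in bone (log2 fold change 3.397 ± 0.30, adjusted p = 1.00e-05) and in skin (log2 fold change 4.73 ± 0.32, adjusted p = 1.18e-06). Its neighbour Adamts15 passed in no comparison, at 77.0 ± 3.36 CPM in thymus, 88.2 ± 28.7 CPM in bone and 104 ± 26.6 CPM in skin. Adamts20 was at 6.59 ± 1.18 CPM in thymus, 0.257 ± 0.270 CPM in bone and 0.925 ± 0.103 CPM in skin. Adamts20 was higher in thymus than in bone (log2 fold change 4.66 ± 0.91, adjusted p = 0.00214, and 5.87 without bone 2). Its thymus minus skin call (log2 fold change 2.83 ± 0.83, adjusted p = 0.0184) was lost without skin 1, skin 2, skin 3 or thymus 2, with adjusted p up to 0.0622. Adamts9 was at 35.8 ± 6.07 CPM in thymus, 23.6 ± 12.4 CPM in bone and 18.6 ± 1.99 CPM in skin. Adamts9 was higher in thymus than in skin (log2 fold change 0.94 ± 0.31, adjusted p = 0.0367), a call lost without skin 1, skin 2, skin 3, thymus 2 or thymus 1-3, with adjusted p up to 0.113. Substrates of this class moved too: the cartilage proteoglycan Acan was at 0.0503, 175 and 1.56 CPM in thymus, bone and skin, and Vcan, the versican gene, at 367, 653 and 418 CPM.

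The procollagen N-propeptidases trim the amino ends of fibrillar procollagens. Adamts2 stood at 389.7, 459 and 485 CPM in thymus, 335, 319.7 and 341 CPM in bone and 951, 1174 and 1227 CPM in skin. Skin was highest without overlap, and Adamts2 was lower in thymus (log2 fold change -1.33 ± 0.15, adjusted p = 2.94e-05) and in bone (log2 fold change -1.75 ± 0.15, adjusted p = 3.69e-06) than in skin. The step from thymus to bone (adjusted p = 0.0455) was lost without bone 1, bone 2, bone 3, skin 2, thymus 3 or thymus 1-3, with adjusted p up to 0.136. Adamts3 ran the other way, at 10.8 ± 2.43 CPM in thymus, 22.3 ± 2.62 CPM in bone and 3.58 ± 0.903 CPM in skin, highest in bone (log2 fold change 2.64 ± 0.25, adjusted p = 7.32e-06 for bone minus skin) and lower in thymus than in bone (log2 fold change -1.05 ± 0.24, adjusted p = 0.00524). Adamts14 was at 59.0 ± 8.31 CPM in thymus, 41.0 ± 3.75 CPM in bone and 64.0 ± 8.99 CPM in skin. Adamts14 was lower in bone than in thymus (log2 fold change 0.53 ± 0.15, adjusted p = 0.0193), a call lost without bone 2, bone 3 or thymus 2 with adjusted p up to 0.0850. Its bone minus skin difference, log2 fold change -0.64 ± 0.15, adjusted p = 0.00432, went to 0.045, adjusted p = 0.820 by library size alone. Type I collagen, a substrate, was highest in skin, with Col1a1 at 6963, 13157 and 97246 CPM in thymus, bone and skin.

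Among the 9 other ADAMTS proteases, Adamts6, Adamts18 and Adamts19 had the largest called differences. Adamts6 stood at 2.95, 2.24 and 2.07 CPM in thymus, 27.9, 19.8 and 27.0 CPM in bone and 2.29, 1.85 and 1.61 CPM in skin. Adamts6 was high in bone alone (log2 fold change -3.36 ± 0.26, adjusted p = 2.36e-06 for thymus minus bone, and log2 fold change 3.70 ± 0.26, adjusted p = 9.42e-07 for bone minus skin). Adamts18 stood at 0, 0.0335 and 0.0196 CPM in thymus, 0.369, 1.73 and 0.325 CPM in bone and 5.63, 9.86 and 19.9 CPM in skin. Skin was highest and thymus lowest (log2 fold change -9.29 ± 1.10, adjusted p = 7.96e-05 for thymus minus skin, and log2 fold change -3.86 ± 0.80, adjusted p = 0.00255 for bone minus skin), but skin 3 led the group and without it the skin mean fell to 7.75 CPM. The thymus minus skin value was -8.68 without skin 3 and -10.14 without thymus 3, and the bone minus skin value was -5.08 without bone 2 and -3.26 without skin 3. Adamts19 stood at 0, 1.05 and 1.06 CPM in thymus, 19.4, 18.3 and 17.5 CPM in bone and 30.8, 20.1 and 21.7 CPM in skin. Adamts19 was lower in thymus than in bone (log2 fold change -4.71 ± 0.91, adjusted p = 0.00317) and in skin (log2 fold change -5.11 ± 0.92, adjusted p = 0.00179), with thymus 2 at 0. Without thymus 2 these values were -4.12 and -4.51. Adamts7 was at 38.4 ± 8.79 CPM in thymus, 32.5 ± 3.45 CPM in bone and 13.96 ± 2.21 CPM in skin. Adamts7 was lower in skin than in thymus (log2 fold change 1.46 ± 0.20, adjusted p = 0.000132) and in bone (log2 fold change 1.22 ± 0.20, adjusted p = 0.000354). Adamts12, which cuts the cartilage protein Comp, was at 167 ± 10.6 CPM in thymus, 108 ± 12.6 CPM in bone and 176 ± 27.7 CPM in skin. Adamts12 was lower in bone than in thymus (log2 fold change 0.62 ± 0.15, adjusted p = 0.00653) and in skin (log2 fold change -0.71 ± 0.15, adjusted p = 0.00204, but -0.012, adjusted p = 0.954 by library size alone).

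All 5 ADAMTS-like genes differed between thymus and skin, 4 of them lower in thymus. Over all genes tested, 37.6% were called in this comparison and 18.3% were lower in thymus. The lower call of Adamtsl5 was not examined by library size alone. Its RPKM was 14.2 ± 2.13 in thymus and 16.6 ± 2.60 in skin. Adamtsl1 stood at 25.4, 41.6 and 47.4 CPM in thymus, 43.9, 50.3 and 35.8 CPM in bone and 417, 440.4 and 389 CPM in skin. Skin was highest without overlap (log2 fold change -3.44 ± 0.23, adjusted p = 5.87e-07 for thymus minus skin, and log2 fold change -3.26 ± 0.23, adjusted p = 8.66e-07 for bone minus skin), and thymus and bone overlapped. Adamtsl4, which binds fibrillin fibres, rose from thymus through bone to skin, at 63.6 ± 20.2 CPM in thymus, 126 ± 12.7 CPM in bone and 339 ± 65.5 CPM in skin (log2 fold change -2.41 ± 0.23, adjusted p = 1.06e-05 for thymus minus skin). Adamtsl2, which binds fibrillin and latent TGF-beta binding protein, was at 12.6 ± 3.73 CPM in thymus, 1.94 ± 0.258 CPM in bone and 48.8 ± 22.7 CPM in skin, lowest in bone (log2 fold change -4.65 ± 0.38, adjusted p = 4.85e-06 for bone minus skin, and log2 fold change 2.70 ± 0.35, adjusted p = 0.000172 for thymus minus bone). Adamtsl3 alone ran opposite, at 120.3 ± 14.8 CPM in thymus, 69.4 ± 5.30 CPM in bone and 15.6 ± 6.68 CPM in skin. It was higher in thymus (log2 fold change 2.95 ± 0.27, adjusted p = 1.26e-05) and in bone (log2 fold change 2.15 ± 0.26, adjusted p = 7.51e-05) than in skin. Its thymus minus bone call (adjusted p = 0.0344) was lost without any thymus or bone library, with adjusted p up to 0.103.

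The inhibitors were lower in thymus than in skin for all 5 genes, and lower in bone than in skin for 4. Over all genes tested, 18.3% and 23.4% were lower in these comparisons. Timp2 stood at 1929.7, 2171 and 2433 CPM in thymus, 2233, 2221 and 2035 CPM in bone and 3516, 4619 and 4809.9 CPM in skin. Timp2, which also helps Mmp14 activate Mmp2, overlapped and was not called between thymus and bone (log2 fold change 0.0096 ± 0.16, adjusted p = 0.975) and was higher in skin without overlap (log2 fold change -0.99 ± 0.16, adjusted p = 0.000588 for thymus minus skin, and log2 fold change -0.996 ± 0.16, adjusted p = 0.000420 for bone minus skin). By library size alone both skin differences missed the threshold (adjusted p = 0.0633 and 0.101). Timp3 stood at 279.8, 359 and 357 CPM in thymus, 477, 476 and 395 CPM in bone and 1037, 1117 and 977 CPM in skin. Timp3, the matrix-bound inhibitor that also blocks Adam17 and the aggrecanases, was highest in skin (log2 fold change -1.65 ± 0.15, adjusted p = 6.83e-06 for thymus minus skin, and log2 fold change -1.22 ± 0.15, adjusted p = 5.20e-05 for bone minus skin). Its thymus minus bone call (adjusted p = 0.0422) was lost without bone 1, bone 2, skin 2, thymus 2 or thymus 3, with adjusted p up to 0.160.

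Reck stood at 129, 143 and 162 CPM in thymus, 79.2, 105 and 76.8 CPM in bone and 394, 430.01 and 329 CPM in skin. Reck separated all 3 tissues, in the order skin, thymus, bone (log2 fold change 0.74 ± 0.16, adjusted p = 0.00465 for thymus minus bone, log2 fold change -1.41 ± 0.17, adjusted p = 4.25e-05 for thymus minus skin, and log2 fold change -2.14 ± 0.17, adjusted p = 2.05e-06 for bone minus skin). Timp1 stood at 16.8, 27.0 and 47.9 CPM in thymus, 108, 102 and 267 CPM in bone and 85.3, 107 and 134 CPM in skin. Timp1, the inducible inhibitor, was lower in thymus than in bone (log2 fold change -2.38 ± 0.46, adjusted p = 0.00330) and in skin (log2 fold change -1.83 ± 0.45, adjusted p = 0.0102). Bone 3 was far above the other bone libraries, and without it the bone mean fell from 159 to 105 CPM and the thymus minus bone value went to -1.78. Bone and skin overlapped and did not differ past the threshold (log2 fold change 0.55 ± 0.44, adjusted p = 0.335), although by library size alone they did (1.23, adjusted p = 0.0332).

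Timp4 had no read in the 6 thymus and bone libraries and had 0.360, 0.293 and 0.300 CPM in skin. Against a floor of 3 reads over each group, it was at least 36.3-fold higher in skin than in thymus and at least 33.3-fold higher than in bone. With adjusted p = 0.0393 and 0.0339, both calls were lost on leaving out any library of the tissues compared, with adjusted p up to 0.101 and 0.0847. Timp1, Timp3 and Timp4 lie within the synapsin genes Syn1, Syn3 and Syn2. GENCODE exons of Timp3 share 1733 bases, or 21.3% of its exon bases, with Syn3, those of Timp4 share 1.53% with Syn2, and those of Timp1 none with Syn1. Syn3 was at 1.61, 2.05 and 0.697 CPM in thymus, bone and skin, and none of these differences was called. The part of Syn3 in the reads of Timp3 was not tested.

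**Figure D4:**
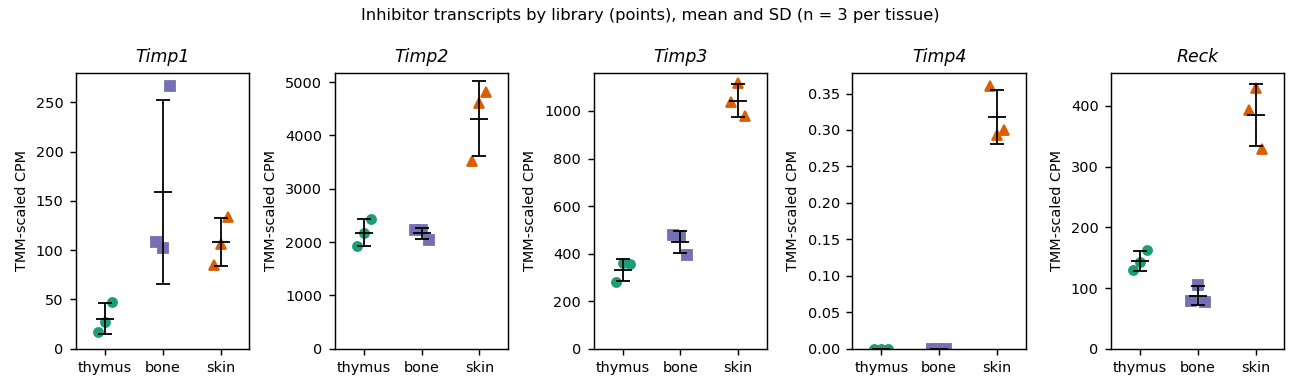
TMM-scaled CPM (y axis, linear from 0) of the 5 inhibitor genes, with 1 point per library and the mean ± SD of 3 libraries per tissue (x axis). Skin lies above thymus in every panel, bone 3 lies alone at 267 CPM in the Timp1 panel, and thymus and bone are at 0 in the Timp4 panel.

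Levels of different genes can be compared only per length, for which the authors' RPKM values were used. In RPKM, Timp2 had 608 ± 64.2 in thymus, 602 ± 36.7 in bone and 821 ± 117 in skin. Mmp2 had 498 ± 33.97 in thymus, 685 ± 11.3 in bone and 766 ± 121 in skin. Mmp14 had 438 ± 81.9 in thymus, 312 ± 41.1 in bone and 448 ± 33.5 in skin. These 3 led the members in all 3 tissues. Next in thymus came Mmp9 at 179 ± 20.6 RPKM and next in bone Mmp13 at 242 ± 179 RPKM, followed there by Timp1 at 183 ± 106. In skin Adamts2 came next at 207 ± 23.5 RPKM. Of the summed RPKM of the 23 Mmp genes, Mmp2 made up 38.1% in thymus, 50.1% in bone and 52.6% in skin, while Mmp9 made up 13.6% in thymus and 0.0107% in skin and Mmp13 16.4% in bone. Timp2 made up 85.2%, 68.7% and 77.3% of the RPKM of the 4 Timp genes.

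**Figure D5:**
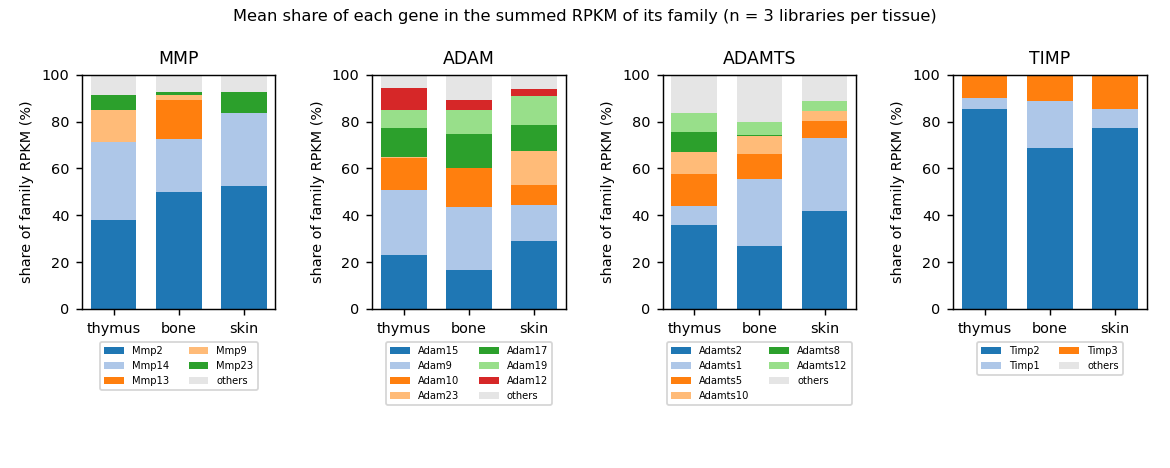
Mean share (%) of each gene in the summed RPKM of the MMP, ADAM, ADAMTS and TIMP families in thymus, bone and skin (3 libraries each); genes under 5% in every tissue are pooled as others. Mmp2 and Mmp14 fill most of each MMP bar, with Mmp9 added in thymus and Mmp13 in bone.

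Ratios within a library do not depend on scaling between libraries. The summed Timp RPKM was 0.546 ± 0.0712 times the summed Mmp RPKM in thymus, 0.647 ± 0.107 in bone and 0.730 ± 0.0133 in skin, and thymus and skin did not overlap. Mmp9 was 6.21 ± 3.58 times Timp1, its classic partner, in thymus, 0.200 ± 0.0928 in bone and 0.00188 ± 0.00114 in skin, with all 3 tissues separate. Mmp2 was 0.828 ± 0.130, 1.14 ± 0.0753 and 0.933 ± 0.0334 times Timp2 in thymus, bone and skin, and bone overlapped neither other tissue. With 3 libraries against 3, the exact two-sided permutation test cannot go below p = 0.1, and over 18 such comparisons of 6 ratios the smallest adjusted p was 0.138, so none passed the threshold.

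Members without a call in any comparison and with 10 CPM or more in every tissue were Adam17, Adamts10, Adamts15 and Adamts16. Adamts10, which binds fibrillin, was at 126 ± 6.83 CPM in thymus, 98.8 ± 18.6 CPM in bone and 127 ± 16.5 CPM in skin, but its thymus minus skin difference of -0.015 went to 0.62, adjusted p = 0.00527 by library size alone. Adamts16 was at 32.4 ± 17.0 CPM in thymus, 24.7 ± 6.75 CPM in bone and 38.7 ± 4.33 CPM in skin, with a wide spread in thymus, and without thymus 2 its thymus minus bone and bone minus skin comparisons came under the threshold (adjusted p = 0.0249 and 0.0217). A p above the threshold does not show that levels were equal. Spread between replicates was otherwise modest: among members at 10 CPM or more, the median coefficient of variation was 14.1% in thymus, 13.1% in bone and 15.8% in skin, and the highest were Mmp13 in bone at 71.8%, Adamts18 in skin at 62.1% and Adamts16 in thymus at 52.6%.

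Other proteases and inhibitors that act with these families were read from a list of 43 genes, of which 39 were tested. In thymus against bone 14 were higher and 9 lower, in thymus against skin 9 higher and 15 lower, and in bone against skin 10 higher and 16 lower, where the calls over all genes made up 32.6%, 37.6% and 47.1%. By library size alone 18 were higher in thymus than in skin and 17 higher in bone than in skin, and without skin 1 the first of these was 5 in place of 9. The plasminogen system activates MMP precursors. Serpine2 stood at 3937, 3427 and 2910.4 CPM in thymus, 511, 534 and 521 CPM in bone and 11.1, 23.5 and 35.6 CPM in skin. Serpine2, an inhibitor of thrombin and plasminogen activators, was higher in thymus than in bone (log2 fold change 2.71 ± 0.34, adjusted p = 0.000157) and than in skin (log2 fold change 7.20 ± 0.42, adjusted p = 6.50e-07). The activator Plat was low in bone, at 654 ± 102 CPM in thymus, 100.1 ± 23.1 CPM in bone and 696 ± 92.6 CPM in skin (log2 fold change 2.71 ± 0.20, adjusted p = 2.03e-06 for thymus minus bone). The urokinase receptor Plaur was low in thymus, at 8.32 ± 1.83 CPM in thymus, 48.6 ± 9.70 CPM in bone and 69.3 ± 19.0 CPM in skin (log2 fold change -3.06 ± 0.25, adjusted p = 3.76e-06 for thymus minus skin).

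The procollagen C-propeptidase group was high in skin, where 4 of its 5 tested genes were higher than in bone and 4 higher than in thymus. Over all genes tested, 23.4% were higher in skin than in bone and 18.3% higher in skin than in thymus. Bmp1, the enzyme itself, was at 673 ± 111 CPM in thymus, 528 ± 13.2 CPM in bone and 1494 ± 140.4 CPM in skin (log2 fold change -1.501 ± 0.15, adjusted p = 1.32e-05 for bone minus skin), and its enhancer Pcolce at 1171 ± 243 CPM in thymus, 932 ± 68.5 CPM in bone and 3386 ± 439 CPM in skin (log2 fold change -1.86 ± 0.18, adjusted p = 8.42e-06). Tll2, a relative of Bmp1, was found mainly in thymus, at 16.1 ± 1.57 CPM in thymus, 0.305 ± 0.285 CPM in bone and 0.321 ± 0.325 CPM in skin (log2 fold change 5.73 ± 1.02, adjusted p = 0.00195 for thymus minus bone, and 6.80 without bone 3). Among other serine proteases and serpins, 2 were higher and 5 lower in thymus than in skin, against 19.3% and 18.3% of all genes. Of the lower ones, Htra1 and Htra3 lost their calls by library size alone (adjusted p = 0.0572 and 0.424). The call of Htra3 was also lost without thymus 2 or thymus 3, with adjusted p up to 0.0627. Htra4 was high in bone alone, at 3.50 ± 0.731 CPM in thymus, 1404 ± 358 CPM in bone and 1.68 ± 0.696 CPM in skin (log2 fold change -8.65 ± 0.37, adjusted p = 7.37e-08 for thymus minus bone). Its bone level moved together with the chondrocyte and osteoblast markers given above, and their part in it was not tested. Dpp4, a fibroblast surface peptidase, was highest in skin, at 157 ± 62.1 CPM in thymus, 55.0 ± 13.6 CPM in bone and 789 ± 46.9 CPM in skin (log2 fold change -3.84 ± 0.32, adjusted p = 5.11e-06 for bone minus skin). The anti-angiogenic serpin Serpinf1 was at 1389 ± 271 CPM in thymus, 1145 ± 58.5 CPM in bone and 4438 ± 696 CPM in skin (log2 fold change -1.95 ± 0.18, adjusted p = 6.83e-06 for bone minus skin).

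Partners that steer ADAMs and MMPs also differed by tissue. Tspan15, a tetraspanin that guides Adam10, was nearly lost from skin, at 78.6 ± 13.0 CPM in thymus, 115 ± 33.3 CPM in bone and 0.583 ± 0.373 CPM in skin (log2 fold change 7.65 ± 0.49, adjusted p = 2.05e-06 for bone minus skin), while Adam10 had the smaller difference given above. Rhbdf2, which carries Adam17 to the cell surface, was highest in thymus, at 32.1 ± 5.01 CPM in thymus, 10.8 ± 2.06 CPM in bone and 4.64 ± 1.47 CPM in skin (log2 fold change 2.79 ± 0.26, adjusted p = 6.82e-06 for thymus minus skin), while Adam17 passed in no comparison. Pcsk6, a convertase of protease precursors, was highest in bone, at 234 ± 74.1 CPM in thymus, 911 ± 241 CPM in bone and 285 ± 72.5 CPM in skin (log2 fold change -1.96 ± 0.28, adjusted p = 0.000308 for thymus minus bone). Bsg, an inducer of MMPs, was highest in skin, at 337 ± 49.6 CPM in thymus, 242 ± 9.04 CPM in bone and 745 ± 24.1 CPM in skin (log2 fold change -1.62 ± 0.14, adjusted p = 3.89e-06 for bone minus skin), and the clearance receptor Lrp1 highest in bone, at 2109 ± 106 CPM in thymus, 4249 ± 278 CPM in bone and 3182 ± 347 CPM in skin (log2 fold change -1.01 ± 0.15, adjusted p = 0.000243 for thymus minus bone). Of the cathepsins and cystatins, 3 were higher and 2 lower in thymus than in bone, where 32.6% of all genes were called, 1 of 8 differed between thymus and skin (Ctsb, lost by library size alone with adjusted p = 0.952 and without skin 3, thymus 2 or thymus 3 with adjusted p up to 0.0913), against 37.6% of all genes, and for bone minus skin 2 were higher and 1 lower, against 47.1%. Ctsl was low in bone, at 1059.7 ± 74.04 CPM in thymus, 495 ± 42.8 CPM in bone and 1076 ± 243 CPM in skin (log2 fold change 1.10 ± 0.17, adjusted p = 0.000475 for thymus minus bone), and Cst3, the main secreted cystatin, high there, at 275 ± 25.2 CPM in thymus, 578 ± 24.2 CPM in bone and 289 ± 46.1 CPM in skin (log2 fold change -1.07 ± 0.15, adjusted p = 0.000191).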

How the data were processed

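RNA of sorted cells was sequenced in 9 libraries, 3 per tissue, grouped by their labels. The tools CASAVA 1.8.2 and HTSeq 0.5.4, and mm10 as the build, appear in the submitters' processing notes. The aligner, the annotation and the strand setting were not given in the sources used here. Deposited counts were whole reads per gene, in the layout of HTSeq with 5 summary lines, which held 5.05% to 14.8% of reads and were left out. The deposited RPKM values, made by the authors, were used to compare genes with each other. The deposited signal is a whole number per gene equal to a median of 98.5 to 99.1 per read, taken as read bases and used only as a check.

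Counts were fitted with edgeR 4.0.16 (R 4.3.3; TMM, filterByExpr by tissue, robust quasi-likelihood test, all 9 libraries in 1 fit). The SE is the log2 fold change divided by the square root of F. Alternatives were RLE factors, library size only, no filter, 1 CPM in 3 libraries, DESeq2 1.42.0, limma 3.58.1 on log2 RPKM, a replicate block, the 2 tissues alone and leaving out each library. The fit was tested on simulated data. Intervals and floors of 3 reads cover counting error only.

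The members and lists were chosen with earlier results of these data known. The rule for named genes took every Timp and Reck, up to 10 members per direction and comparison with the largest called change and 1 CPM or more, members with 10 CPM or more in every tissue and no call, the 8 highest in RPKM per tissue, and up to 3 genes of each associated list per comparison. Mmp19, Adam10, Adam15, Adam19, Adam33, Adamts5, Adamts9, Adamts12 and Adamts14 were added for their roles after their values were seen. Adamtsl5 was named only to complete the count of its family. Promoter windows came from RefSeq GRCm38.p6 and overlaps from GENCODE M21 on GRCm38.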

Additional observations from a re-analysis of the deposited data

How the results depend on the processing

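The number of members that differed among the tissues was 45 to 50 over fits that each left out 1 library, against 49 with all, and no member named above reversed its sign in such a fit with a call on either side. Members higher in thymus than in skin, 14 with TMM scaling, were 25 by library size only, 22 on log2 RPKM plus 0.1 and 9 to 13 without 1 library, with 9 without skin 2 or thymus 2. Members lower in bone than in skin, 28 with TMM, were 15 by library size only, 15 on log2 RPKM plus 1 or plus 0.1 and 17 on log2 RPKM plus 1 without the filter. Genes of the associated list higher in thymus than in skin, 9 with TMM, were 18 by library size only, 14, 14 and 15 on these RPKM scales and 5 to 9 without 1 library, and those higher in bone than in skin, 10 with TMM, were 17 by library size only. The RPKM scale (plus 1) moved the median of all genes by 0.49 for thymus against skin and 0.50 for bone against skin.

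By library size only, these bone minus skin values changed sign: Adam17 0.67, Adam33 0.53, Adamts14 0.045, Adamts4 0.11, Adamts5 0.15 and Ctsb 0.51. So did these thymus minus skin values: Adamts10 0.62, Adamts12 0.55, Adamts14 0.52, Adamts5 0.46, Mmp14 0.0497, Cst3 0.57, Ctsl 0.61, Lrp1 0.041 and Plat 0.55. On log2 RPKM plus 1, plus 0.1 and plus 1 without the filter, the signs also changed in bone minus skin for Adam17 (0.53, 0.56, 0.53) and Adamts5 (0.042, 0.043, 0.042), and in thymus minus skin for Adamts10 (0.55, 0.57, 0.55), Adamts12 (0.45, 0.47, 0.45), Adamts14 (0.40, 0.44, 0.40), Cst3 (0.47, 0.47, 0.47) and Ctsl (0.55, 0.55, 0.55). The cause was not tested.

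Same-numbered libraries did not deviate together (r from -0.0823 to 0.091 over the pairs that share a number), and not every library correlated best with its own number. With a replicate block, 9 members were higher in thymus than in skin in place of 14, and 9 genes of the associated list were higher in thymus than in bone in place of 14. The block followed the library labels, and the thymus library with a joint label shares that label with no other library. The block therefore fitted that library by itself, and thymus values under it rest on the other thymus libraries. For this reason the calls lost with the block cannot show an effect of pairing. Over 231 values of named genes, the block lost 25 calls and gained 3, and RLE factors lost 4 and gained 2. DESeq2 lost none and gained 6. Members with few reads, such as Mmp10 in thymus and Timp4, are limited by counting error.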

Other observations

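Matrix proteins that these enzymes cut differed by tissue as well. Of 8 such genes, 2 were higher and 6 lower in thymus than in bone, 2 higher and 3 lower in thymus than in skin, and for bone minus skin 5 higher and 2 lower. Over all genes, 16.5% were higher and 16.1% lower in the first comparison, 19.3% and 18.3% in the second and 23.7% and 23.4% in the third. The cartilage genes Col2a1 and Comp were found almost only in bone, at 221 and 1102 CPM, against 0.159 and 1.93 CPM in thymus and 0.262 and 0.255 CPM in skin. Fibronectin (Fn1) was at 2411 ± 721 CPM in thymus, 36950.5 ± 4514 CPM in bone and 20436 ± 4000.3 CPM in skin. Fn1 was lower in thymus than in bone (log2 fold change -3.94 ± 0.26, adjusted p = 9.35e-07) and in skin (log2 fold change -3.08 ± 0.25, adjusted p = 2.88e-06). Col4a1, a chain of type IV collagen, was at 4050.3 ± 459 CPM in thymus, 1547 ± 139.7 CPM in bone and 1220.1 ± 383 CPM in skin. It was higher in thymus than in bone (log2 fold change 1.39 ± 0.22, adjusted p = 0.000522) and in skin (log2 fold change 1.73 ± 0.22, adjusted p = 9.09e-05). The perlecan gene Hspg2 was at 4031 ± 606 CPM in thymus, 1936 ± 51.3 CPM in bone and 3042 ± 598 CPM in skin (log2 fold change 1.06 ± 0.18, adjusted p = 0.000813 for thymus minus bone, and log2 fold change 0.41 ± 0.18, adjusted p = 0.0961 for thymus minus skin).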
